A study of Rattus norvegicus with 30 samples.

Results

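Nfkb1, Rela and Nfkbia are 3 genes at the centre of the NF-kappaB pathway, and their mRNA was examined here at 1 time point in the chronic phase of traumatic brain injury (TBI) in the rat. They were chosen by their Ensembl identifiers, ENSRNOG00000023258 for Nfkb1, ENSRNOG00000030888 for Rela and ENSRNOG00000007390 for Nfkbia, and make up 3 of the 26404 genes in each count table. TBI was modelled by lateral fluid-percussion injury (FPI), in which a brief pulse of fluid pressure strikes the exposed but intact dura. The injured group was 5 adult male Sprague-Dawley rats, numbered 6 to 10, and the control group was 5 sham-operated rats of the same strain and sex, numbered 1 to 5. Both groups went through anaesthesia and a left-sided craniectomy, so the sham rats carry the surgery without the impact. Brains were taken at 3 months, and mRNA was sequenced from the perilesional cortex, the thalamus and the hippocampus of every rat, which gave 30 libraries. The hippocampal pieces were dissected as dentate gyrus with part of CA3, while the sample labels call the tissue dorsal hippocampus.

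NF-kappaB is a family of dimeric transcription factors that cells keep ready in the cytoplasm and release on inflammatory or stress signals. Rela encodes p65, the subunit that carries the transactivation domain. Nfkb1 encodes the precursor p105, which is processed to the DNA-binding subunit p50. Nfkbia encodes IkappaBalpha, which holds the dimer in the cytoplasm until it is phosphorylated and degraded. Nfkbia is also a classical target gene of NF-kappaB, so the pathway makes its own inhibitor. In the brain, the pathway works in microglia, astrocytes, endothelial cells and neurons. Because the activity of NF-kappaB is set largely by the place and modification of its proteins, mRNA levels of these genes describe the components and not the activity.

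The promoters are shown because 2 of these genes are known to be regulated by the factor that they encode or restrain. In the GRCr8 assembly of RefSeq, Nfkb1 lies at chr2:226689745-226805897, Rela at chr1:212354336-212364815 and Nfkbia at chr6:78593844-78597307. These coordinates are not those of the older build on which the reads were counted. The promoter table gives a window from 250 bases before to 50 bases after 1 annotated start of each gene. This start is the outer end of the gene for Rela, but lies 435 bases inside it for Nfkb1 (at chr2:226805462) and 235 bases inside it for Nfkbia (at chr6:78597072), both on the minus strand, so the windows of Nfkb1 and Nfkbia lie wholly or mostly within the outermost gene span. The kappaB decamer, the consensus DNA element of NF-kappaB, was searched on both strands of the windows. The window of Nfkbia held 1 match on the opposite strand, 31 to 22 bases before the start used. The window of Nfkb1 also held 1 match, 4 to 13 bases after the start used. The 30 bases around each match, at chr6:78597084-78597113 for Nfkbia and chr2:226805440-226805469 for Nfkb1, are printed 5′ to 3′ on the minus strand with the match in capitals.
Nfkbia: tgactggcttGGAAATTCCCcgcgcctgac
Nfkb1: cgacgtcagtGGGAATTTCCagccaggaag
The window of Rela held no match to these letters. Across all 33469 windows of this length in the table, 4.18% held at least 1 match. A match describes the sequence and is not evidence of a bound site.

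All 3 genes passed the filter on low counts in every brain area, with between 226 and 2047 reads counted per gene and library. Library totals ran from 21992859 to 31799879 counts. Levels are given as CPM, counts per 1000000 of a library total after TMM scaling within a brain area, and intervals and tests come from edgeR's quasi-likelihood test, with p-values adjusted over all genes tested in that area. The 10 most counted genes took 6.32% to 29.6% of the counts in most libraries, but 44.1% and 40.9% in the hippocampal libraries of sham rats 4 and 5. In the cortex, this share was 20.3% to 29.6% in sham rats and 14.1% to 23.9% after TBI, and its part in the cortical differences was not tested. The hippocampal libraries labelled rat 3 (sham) and rat 8 (TBI) went against their labels. Over 5 genes that differed strongly between rats, in the same way in cortex and thalamus, and whose correlation with treatment was under 0.5 in size, the library labelled rat 3 correlated at r = 0.90 with rat 8 and at -0.41 with rat 3, and the library labelled rat 8 at 0.88 with rat 3 and at -0.16 with rat 8. The other 8 hippocampal libraries correlated with their own rat at 0.82 to 0.97, but for rat 5 the correlation with rat 9 was higher (0.96 against 0.86), so that 7 of 10 libraries were best matched by their own rat and these 5 genes do not place every library. Labels were kept as deposited. The main hippocampal fold changes and tests of the 3 genes are given with and without the libraries labelled rats 3 and 8. Some other hippocampal values are given only with them. Because the tables hold identifiers without gene names and the gene table used here did not match them, markers of the brain areas and of cell types, and the other genes of the pathway, were not analysed here.

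In the perilesional cortex, Rela and Nfkbia each rose 1.45-fold, and Nfkb1, with a fold of 1.14, did not pass the test. Of the 3 genes, 2 were higher after TBI at an adjusted p under 0.05, in an area where 14.2% of the 17185 genes tested were called higher. The median log2 fold change was 0.54 over the 3 genes and -0.01 over all genes tested.

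Cortical Rela was 18.7, 18.9, 18.9, 21.7 and 19.3 CPM in sham rats 1 to 5, and 27.1, 31.6, 29.3, 27.4 and 26.1 CPM in TBI rats 6 to 10. Every TBI library lay above every sham library, which was so for 10.2% of the genes tested. The means were 19.5 ± 1.25 and 28.3 ± 2.17 CPM (SD, n = 5 each), and edgeR gave a 1.45-fold rise, a log2 fold change of 0.54 (SE 0.08, 95% interval 0.37 to 0.71) at an adjusted p of 0.000281. Only 2.62% of the genes tested had a smaller p. The rise of this transactivating subunit was larger than the spread within either group, where the coefficient of variation was 6.39% in sham rats and 7.65% after TBI.

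Cortical Nfkbia was 25.5, 21.4, 18.6, 22.9 and 17.99 CPM in sham rats 1 to 5, and 34.1, 28.7, 24.3, 35.3 and 31.8 CPM in TBI rats 6 to 10. The injured rats lay above all sham rats but for rat 8, which was below sham rat 1. The means were 21.3 ± 3.08 and 30.8 ± 4.44 CPM (SD, n = 5 each), a 1.45-fold rise with a log2 fold change of 0.54 (SE 0.12, 95% interval 0.29 to 0.79) and an adjusted edgeR p of 0.00379. The inhibitor varied more between rats than Rela did, with a coefficient of variation of 14.5% in the sham group and 14.4% in the TBI group. The log2 ratio of Nfkbia to Rela was 0.12 ± 0.21 in sham rats and 0.11 ± 0.30 after TBI (SD, n = 5 each), a difference far below the spread between rats. Because gene lengths were not used, such a ratio is read only for its change and not as a comparison of levels. In the cortex, the log2 ratio to Nfkb1 was higher after TBI by 0.35 for Rela (SD 0.16 in both groups) and by 0.35 for Nfkbia (SD 0.21 in sham rats and 0.17 after TBI). In the thalamus, the log2 ratio of Rela to Nfkb1 was higher by 0.44 (SD 0.18 and 0.34), and that of Nfkbia to Rela differed by -0.20 (SD 0.36 and 0.47). Thalamic Nfkbia to Nfkb1 was higher by 0.23 (SD 0.37 and 0.16). In the hippocampus, with all libraries, the log2 ratio of Rela to Nfkb1 differed by 0.012 (SD 0.11 and 0.14). That of Nfkbia to Nfkb1 differed there by 0.10 (SD 0.41 and 0.30), and that of Nfkbia to Rela by 0.09 (SD 0.42 and 0.23). These ratios were not tested.

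Cortical Nfkb1 was 22.2, 24.0, 20.6, 20.4 and 21.9 CPM in sham rats 1 to 5, and 25.9, 25.7, 22.1, 24.4 and 26.0 CPM in TBI rats 6 to 10. Again rat 8 was the injured rat within the sham range, and the other 4 were above it. The means were 21.8 ± 1.44 and 24.8 ± 1.64 CPM (SD, n = 5 each). The fold was 1.14, with a log2 fold change of 0.19 (SE 0.08, 95% interval 0.02 to 0.36), and the unadjusted edgeR p of 0.0319 became 0.0957 after adjustment. This precursor of p50 was therefore not called in the cortex, although the interval of its difference lay above zero. These are bulk tissue libraries, in which more or fewer cells of a type and more or less RNA per cell cannot be told apart.

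**Figure D1:**
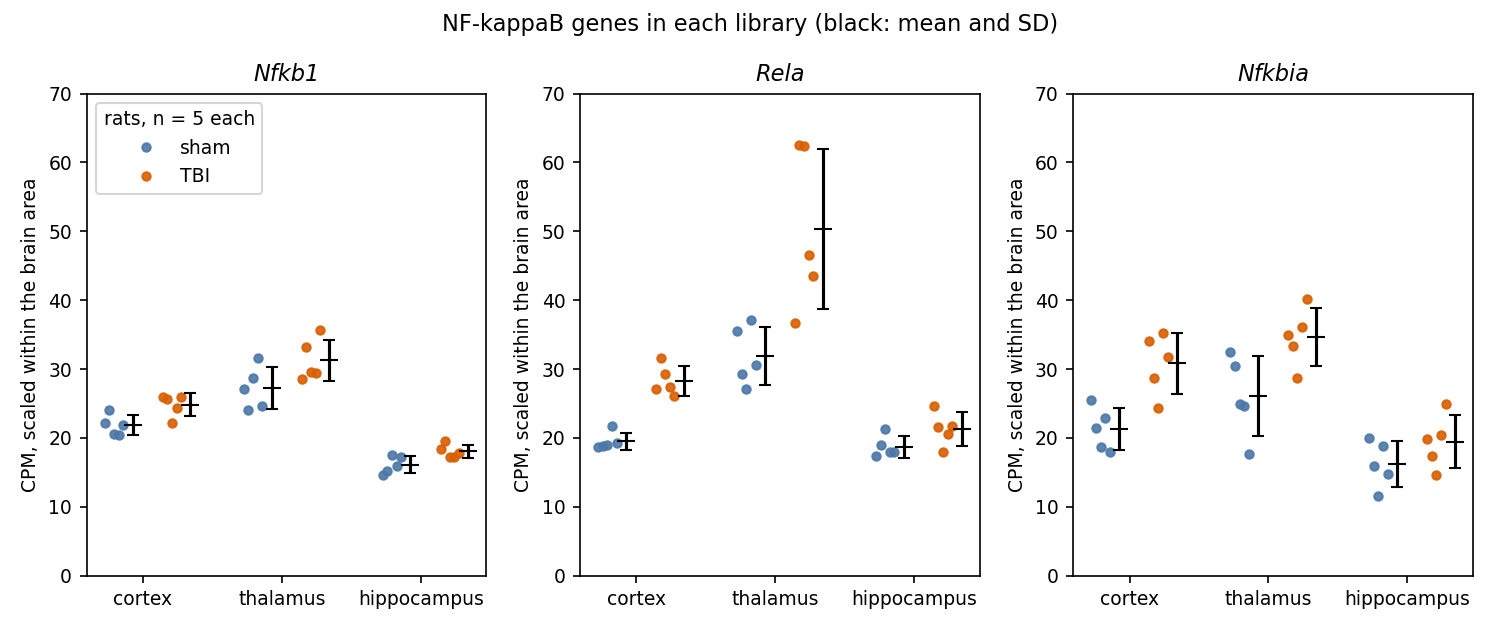
The vertical axis gives the level in CPM, scaled within each brain area, and each point is 1 rat (5 sham, 5 TBI), with the mean and SD in black. Cortical Rela separates into sham libraries up to 21.7 CPM and TBI libraries from 26.1 CPM, whereas thalamic Rela spreads from 36.7 to 62.6 CPM after TBI.

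In the thalamus, Rela rose and the other 2 genes were higher on average without passing the test. Thus 1 of the 3 genes was called higher, where 3.77% of the 16605 genes tested were, and 2 of the 3 had an unadjusted p under 0.05 and were higher, where 12.6% of genes did. No gene of the 3 had every TBI library above every sham library, a pattern that 2.75% of the genes tested showed.

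Thalamic Rela was 35.5, 29.3, 27.1, 37.1 and 30.6 CPM in sham rats 1 to 5, and 36.7, 62.6, 62.3, 46.5 and 43.5 CPM in TBI rats 6 to 10. Rats 7 and 8 had the highest levels, and rat 6 was at the top of the sham range. The means were 31.9 ± 4.23 and 50.3 ± 11.6 CPM (SD, n = 5 each), a 1.58-fold rise with a log2 fold change of 0.66 (SE 0.16, 95% interval 0.32 to 0.996) and an adjusted edgeR p of 0.0324. The call was lost without sham rat 3 (adjusted p = 0.0879), sham rat 5 (0.0863), TBI rat 7 (0.0974), TBI rat 8 (0.0914) or TBI rat 10 (0.0656). These losses were not particular to Rela: the fits without sham rat 3, sham rat 5, TBI rat 7 or TBI rat 8 called 0 genes of the whole thalamus and the fit without TBI rat 10 called 67, against 934 with all rats. In these 5 fits, the unadjusted edgeR p of Rela was 0.00121 to 0.00363. Over the fits without each of the 10 rats, its log2 fold change stayed between 0.56 and 0.76.

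Thalamic Nfkbia was 32.4, 30.5, 24.99, 24.7 and 17.6 CPM in sham rats 1 to 5, and 34.96, 33.3, 28.7, 36.0 and 40.1 CPM in TBI rats 6 to 10. Once more, TBI rat 8 alone lay inside the sham range. The means were 26.0 ± 5.80 and 34.6 ± 4.16 CPM (SD, n = 5 each), with a fold of 1.33 and a log2 fold change of 0.41 (SE 0.16, 95% interval 0.07 to 0.75). The unadjusted edgeR p was 0.0202 and the adjusted p was 0.133.

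Thalamic Nfkb1 was 27.1, 24.1, 28.7, 31.6 and 24.7 CPM in sham rats 1 to 5, and 28.6, 33.1, 29.6, 29.4 and 35.6 CPM in TBI rats 6 to 10. The groups overlapped, with only rats 7 and 10 above every sham rat. The means were 27.2 ± 3.07 and 31.3 ± 3.01 CPM (SD, n = 5 each), with a fold of 1.15 and a log2 fold change of 0.20 (SE 0.11, 95% interval -0.04 to 0.44). The unadjusted edgeR p was 0.0956 and the adjusted p was 0.300.

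In the hippocampus, no gene of the 3 passed the test, and the mean of each was higher after TBI. By edgeR, 0 of the 16963 genes tested were called higher at an adjusted p under 0.05, which is 0% of them, and 5.22% were higher at an unadjusted p under 0.05. DESeq2 called 46 genes in either direction. Without the libraries labelled rats 3 and 8, edgeR called 246 genes higher and 17 lower, and none of the 3 genes was among them. With all hippocampal libraries, groups without overlap and higher after TBI were found for 0.519% of the genes and for none of the 3. With the libraries labelled rats 3 and 8 left out, Rela reached 19.03 CPM in sham rats and began at 20.61 CPM after TBI. Nfkb1 was then parted narrowly, by 17.19 CPM in sham rat 5 and 17.2 CPM in TBI rat 9, and Nfkbia still overlapped. The share over all genes was not computed without those libraries.

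Hippocampal Rela was 17.4, 19.0, 21.4, 17.9 and 17.9 CPM in sham rats 1 to 5, and 24.7, 21.6, 17.9, 20.6 and 21.7 CPM in TBI rats 6 to 10. The highest sham value and the lowest TBI value came from the libraries labelled rats 3 and 8, the ones that went against their labels. The means were 18.7 ± 1.59 and 21.3 ± 2.43 CPM (SD, n = 5 each), with a log2 fold change of 0.18 (SE 0.09, 95% interval -0.02 to 0.38) and edgeR p-values of 0.0686 unadjusted and 0.622 adjusted. Without those libraries, the log2 fold change was 0.29, with an unadjusted edgeR p of 0.00734 and an adjusted p of 0.173.

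Hippocampal Nfkbia was 19.9, 15.9, 11.6, 18.9 and 14.8 CPM in sham rats 1 to 5, and 19.8, 17.3, 14.7, 20.4 and 24.99 CPM in TBI rats 6 to 10. The libraries labelled rats 3 and 8 were the lowest of their groups, and only rats 9 and 10 were above every sham library. The means were 16.2 ± 3.34 and 19.5 ± 3.85 CPM (SD, n = 5 each). The log2 fold change was 0.27 (SE 0.15, 95% interval -0.07 to 0.60) at an adjusted edgeR p of 0.681, and 0.25 at 0.477 without rats 3 and 8. It was 0.16 without TBI rat 10 and 0.16 without sham rat 3.

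Hippocampal Nfkb1 was 14.7, 15.1, 17.5, 15.9 and 17.2 CPM in sham rats 1 to 5, and 18.5, 19.5, 17.3, 17.2 and 17.8 CPM in TBI rats 6 to 10. All TBI libraries lay above the sham median, and 3 of them above every sham library. The means were 16.1 ± 1.23 and 18.1 ± 0.96 CPM (SD, n = 5 each). The log2 fold change was 0.17 (SE 0.08, 95% interval -0.005 to 0.34) at an adjusted edgeR p of 0.598, and 0.22 at 0.374 without rats 3 and 8. Without sham rats 4 and 5, which had the high share of counts in few genes, the log2 fold changes were 0.20 for Nfkb1, 0.15 for Rela and 0.30 for Nfkbia. The study set aside hippocampal controls that were not named, so every pair of sham rats was left out in turn. Over these 10 fits, the log2 fold change of Nfkb1 ranged from 0.10 (without rats 1 and 2) to 0.25 (without rats 3 and 5), that of Rela from 0.13 (without rats 1 and 4) to 0.26 (without rats 2 and 3) and that of Nfkbia from 0.10 (without rats 3 and 5) to 0.47 (without rats 1 and 4), and none was called. Without rats 3, 4, 5 and 8 together, they were 0.30 for Nfkb1, 0.29 for Rela and 0.21 for Nfkbia, and again none was called. The column names of 7 hippocampal libraries hold the code FC120, which the labels do not explain and which was read here as a flow cell. These 7 include the libraries labelled rats 3 and 8. Within them, the log2 fold changes of Nfkb1, Rela and Nfkbia were 0.17, 0.12 and 0.25, at adjusted edgeR p-values of 0.890, 0.899 and 0.890. Without rats 5 and 10, whose column names hold FC122, the log2 fold changes were 0.20, 0.16 and 0.13. The value of Nfkbia was thus less than that over all libraries (0.27) by more than 1.5 times.

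**Figure D2:**
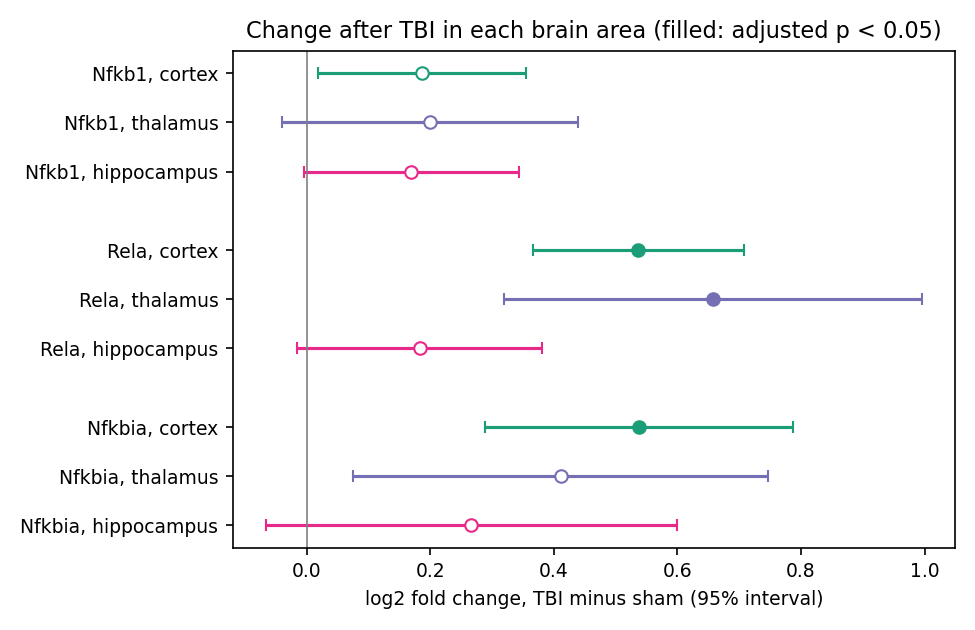
The horizontal axis gives the log2 fold change of TBI over sham with its 95% interval for each gene and brain area (n = 5 rats per group), and filled points passed an adjusted p of 0.05. Rela in cortex (0.54) and thalamus (0.66) and Nfkbia in cortex (0.54) are filled, and all 9 points lie to the right of zero.

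The same rats, tested without a model across genes, gave a similar order. The two-sided exact permutation test over all arrangements of 5 rats against 5 gave p = 0.00794 for cortical Rela, the smallest value that this test can give. It gave exact p-values of 0.0159 for cortical Nfkbia and 0.0238 for cortical Nfkb1. In the thalamus, the exact p-values were 0.0159 for Rela, 0.0317 for Nfkbia and 0.0794 for Nfkb1. In the hippocampus, they were 0.0873 for Rela, 0.222 for Nfkbia and 0.0317 for Nfkb1. Without hippocampal rats 3 and 8, they were 0.0286 for Rela, 0.171 for Nfkbia and 0.0286 for Nfkb1, where 0.0286 is the smallest exact p that 4 rats against 4 can give. These single-gene values were not adjusted over genes. The exact test without rats 3 and 8 was chosen after seeing the data. The library labelled rat 3 was the highest sham library for Rela and for Nfkb1, so leaving it out widened the gap between groups. For Nfkb1, the groups were then parted only by 17.19 CPM in sham rat 5 and 17.2 CPM in TBI rat 9.

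**Figure D3:**
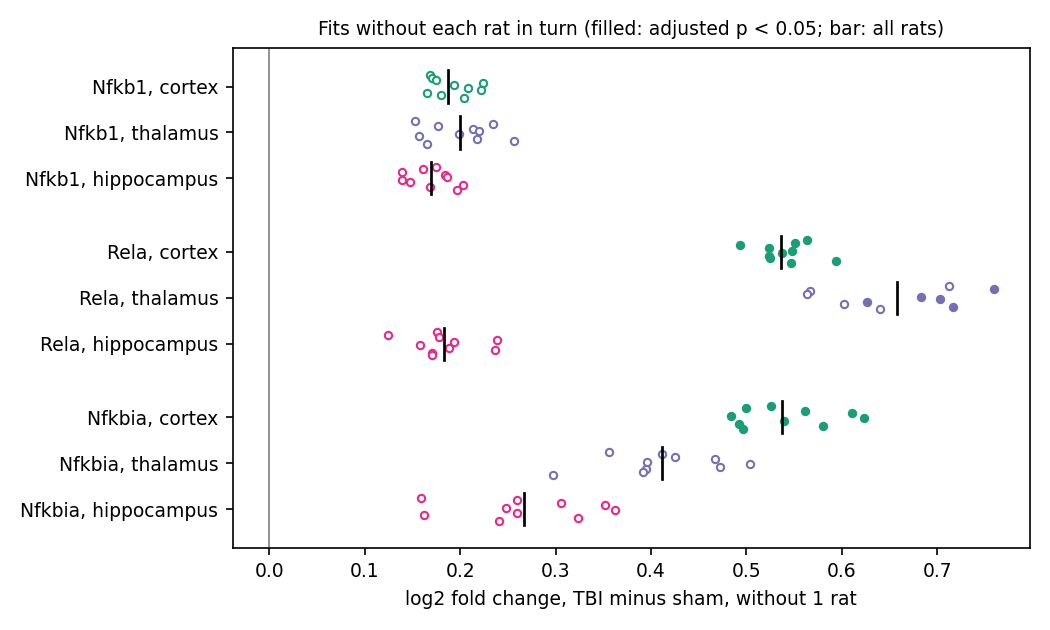
Each point is the log2 fold change of TBI over sham in an edgeR fit that leaves out 1 rat, filled where the adjusted p was under 0.05, and each bar is the fit of all 10 rats. Cortical Rela (0.49 to 0.59) and cortical Nfkbia (0.48 to 0.62) were called in all 10 fits, and thalamic Rela in 5 of 10.

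A single edgeR fit of all 30 libraries, with an interaction term for each pair of areas, asked whether injury changed a gene more in one area than in another. For Rela, the log2 fold change was larger by 0.45 in the thalamus than in the hippocampus (95% interval 0.11 to 0.78), at an edgeR p of 0.0116 that became 0.193 after adjustment. Its cortical response exceeded the hippocampal one by 0.32 (95% interval -0.02 to 0.66, adjusted p = 0.401 by edgeR). The cortical response minus the thalamic one was -0.12 (95% interval -0.46 to 0.21, adjusted p = 0.915 by edgeR), and ranged from -0.20 (without TBI rat 6) to -0.05 (without TBI rat 8) with each rat left out. Without the hippocampal libraries of rats 3 and 8, the thalamic response exceeded the hippocampal one by 0.34 (adjusted p = 0.471 by edgeR, 0.0604 before adjustment) and the cortical response exceeded it by 0.21 (adjusted p = 0.764 by edgeR). Without TBI rat 6, the difference between thalamus and hippocampus was 0.59 at an adjusted edgeR p of 0.0197, which is the only alternative in which an area difference of the 3 genes was called. For Nfkbia, the differences were 0.12 between cortex and thalamus, 0.24 between cortex and hippocampus and 0.12 between thalamus and hippocampus, with adjusted edgeR p-values of 0.95, 0.688 and 0.861. Without the same hippocampal libraries, those with the hippocampus were 0.26 for cortex and 0.14 for thalamus. These differences depended on single rats, with cortex minus thalamus from 0.05 (without sham rat 2) to 0.18 (without sham rat 4) and thalamus minus hippocampus from 0.01 (without sham rat 4) to 0.20 (without sham rat 3). For Nfkb1, they were -0.016, -0.013 and 0.0032, with adjusted edgeR p-values of 0.988, 0.978 and 0.995 and 95% intervals that lay between -0.25 and 0.24, and without those libraries the differences from the hippocampus were -0.06 for cortex and -0.04 for thalamus. Thus Rela passed the threshold in cortex and thalamus and not in hippocampus, but its response was not shown to differ between these areas. Over all genes tested, the same interactions were called for 0.582% of genes between cortex and thalamus, 0.449% between cortex and hippocampus and 0.322% between thalamus and hippocampus. These counts, 105, 81 and 58 genes, depended on the fit, and became 78, 537 and 0 when each pair of areas was fitted alone.

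The same individual rats stood at the ends of the range in more than one area. Among injured rats, cortical and thalamic Rela was highest in rats 7 and 8, whereas Nfkbia was lowest in rats 7 and 8 in all 3 areas. The hippocampal value of rat 8 came from a library that went against its label. Sham rat 1 had the highest Nfkbia of its group in all 3 areas. After subtraction of each group's mean log2 level, Nfkbia of the 10 rats correlated between cortex and thalamus at r = 0.74 (Spearman's rho = 0.73), between cortex and hippocampus at r = 0.81 (rho = 0.78) and between thalamus and hippocampus at r = 0.57 (rho = 0.62). The exact permutation p-values, two-sided with rats permuted within their group, were 0.0163, 0.0101 and 0.122 for r and 0.0285, 0.0176 and 0.0756 for rho. Adjusted over the 9 relations of 3 genes and 3 pairs of areas, the exact permutation values became 0.0496, 0.0496 and 0.219 for r and 0.0859, 0.0859 and 0.136 for rho. For each relation, the 2 rats farthest from the median in the first area named were then left out. This gave r = 0.48, 0.78 and 0.61, so the relation between cortex and thalamus rested in part on rats 5 and 8. Without rats 3 and 8, r was 0.74, 0.68 and 0.62.

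The mean of these correlations was 0.71 for Nfkbia, and 59 of the 16004 genes tested in all 3 areas, or 0.369%, had a higher mean. The median over those genes was 0.06. Without these rats, the mean for Nfkbia was 0.68, and 272 genes, or 1.70%, were higher. The mean was -0.04 for Nfkb1 and -0.10 for Rela, and 66.4% and 76.6% of genes were higher than these. Without rats 3 and 8, it was -0.19 for Nfkb1 and -0.0044 for Rela, with 83.5% and 58.0% of genes higher. For Rela, r was 0.76 between cortex and thalamus (rho = 0.76), -0.77 between thalamus and hippocampus (rho = -0.71) and -0.30 between cortex and hippocampus (rho = -0.37). The exact permutation p-values of r for Rela were 0.0256, 0.0165 and 0.439, adjusted to 0.0575, 0.0496 and 0.640, and those of rho were 0.0382, 0.0332 and 0.35, adjusted to 0.0859, 0.0859 and 0.526. Without the 2 rats farthest from the median in the first area of each relation, r for Rela was 0.65, -0.86 and -0.59. These were rats 4 and 7, rats 7 and 8, and rats 4 and 7. Without rats 3 and 8, r for Rela was 0.77, -0.63 and -0.15. No test compared the genes with each other. For Nfkb1, r was -0.25, -0.07 and 0.19 in the order of areas given for Nfkbia (rho = -0.28, -0.18 and 0.26), with exact permutation p-values of at least 0.498 for r and 0.450 for rho. Without rats 3 and 8, r for Nfkb1 was -0.48, -0.12 and 0.03. These relations were examined after the values of single rats had been seen.

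**Figure D4:**
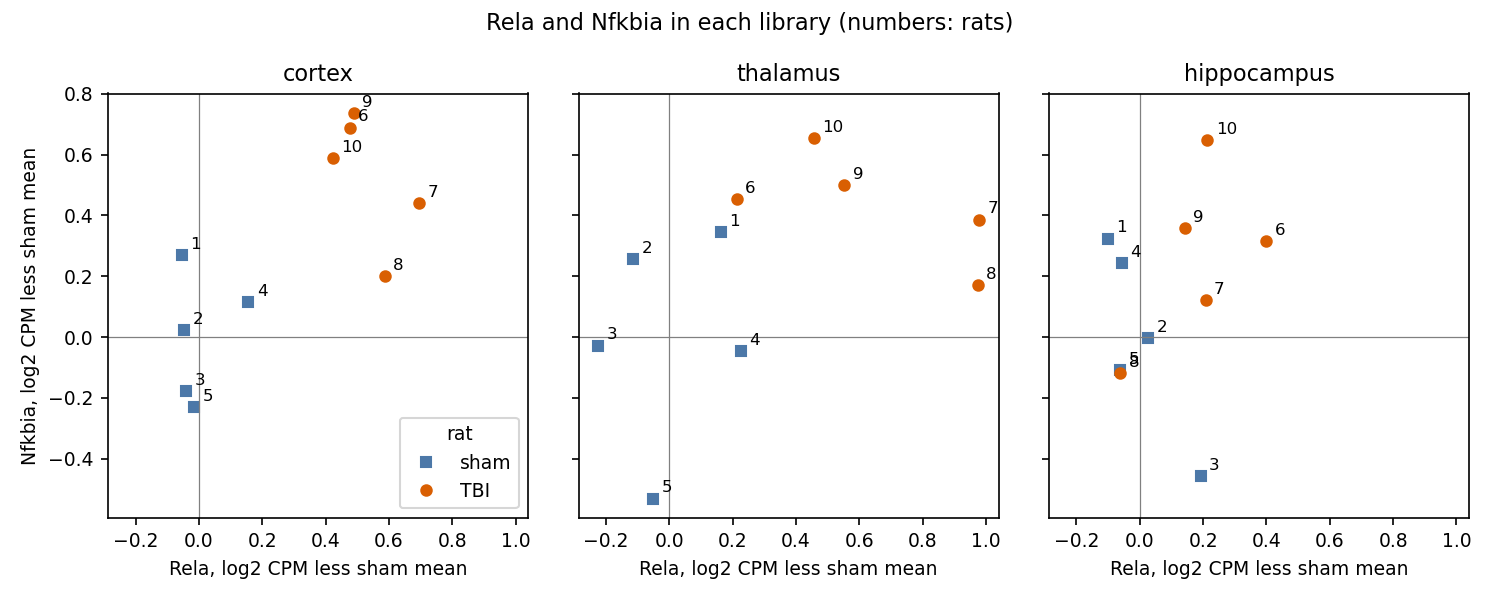
Each numbered point is 1 rat, with the log2 CPM of Rela (horizontal) and of Nfkbia (vertical) less the sham mean of the area. TBI rats 7 and 8 lie farthest to the right and lowest among the injured rats in the cortex and thalamus, and the hippocampal libraries labelled rats 3 and 8 lie low in their groups.

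Across the 30 libraries, with the mean of each area removed, Spearman's rho was 0.66 between Nfkb1 and Rela, 0.52 between Rela and Nfkbia and 0.41 between Nfkb1 and Nfkbia. With the mean of each area and treatment removed, it was 0.18, -0.23 and -0.07. Without the hippocampal libraries of rats 3 and 8, these values were 0.65, 0.58 and 0.48, and 0.14, -0.35 and 0.01. These values are descriptions, because libraries of a rat or an area are not independent. The values with treatment removed were thus smaller or negative. Over all 30 libraries with the area mean removed, 3.26% of 16003 genes had a higher rho with Nfkb1 than Rela had, and 9.88% a higher rho with Rela than Nfkb1 had. For Rela and Nfkbia, these shares were 16.1% and 4.26%, and for Nfkb1 and Nfkbia 16.7% and 11.2%. With treatment also removed, they ran from 26.1% to 89.5%.

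In sham-operated rats, the mean of each gene was highest in the thalamus, and the means of Nfkb1 and Nfkbia were lowest in the hippocampus. On a scale common to the 15 sham libraries, Rela was highest in the thalamus at 26.0 ± 3.19 CPM, followed by the hippocampus at 19.3 ± 1.65 CPM and the cortex at 18.3 ± 1.24 CPM (SD, n = 5 each). Thalamic Rela exceeded cortical Rela 1.42-fold (adjusted p = 0.000151 by edgeR) and hippocampal Rela 1.34-fold (adjusted p = 0.000875 by edgeR). The difference of Rela between cortex and hippocampus was not called (adjusted p = 0.527 by edgeR). Background calls were frequent here, since 35.8% of the 17315 genes tested were called lower in cortex than in thalamus and 32.3% higher in thalamus than in hippocampus. Nfkb1 was 22.2 ± 2.18 CPM in the thalamus, 20.4 ± 1.31 CPM in the cortex and 16.6 ± 1.27 CPM in the hippocampus (SD, n = 5 each). For Nfkb1, the difference between thalamus and cortex was not called (adjusted p = 0.261 by edgeR). Hippocampal Nfkb1 was below that of the thalamus (1.34-fold, adjusted p = 0.000575 by edgeR) and the cortex (1.23-fold, adjusted p = 0.0131 by edgeR), the latter a direction called for 20.5% of genes. Nfkbia was 21.2 ± 4.64 CPM in the thalamus, 19.96 ± 3.02 CPM in the cortex and 16.7 ± 3.44 CPM in the hippocampus (SD, n = 5 each), and no pair of areas was called. Its difference between thalamus and hippocampus was 0.35 on the log2 scale at an adjusted edgeR p of 0.0688, and 0.35 at 0.0169 with the rat as a replicate block. Without the hippocampal library of rat 3, this difference was 0.24 at an adjusted edgeR p of 0.193, and the calls for Rela and Nfkb1 between areas did not change. According to the methods, the thalamic libraries were read on another instrument with longer reads, while the labels give a single instrument, so brain area and sequencing cannot be told apart where the thalamus is compared with the cortex or the hippocampus.

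**Figure D5:**
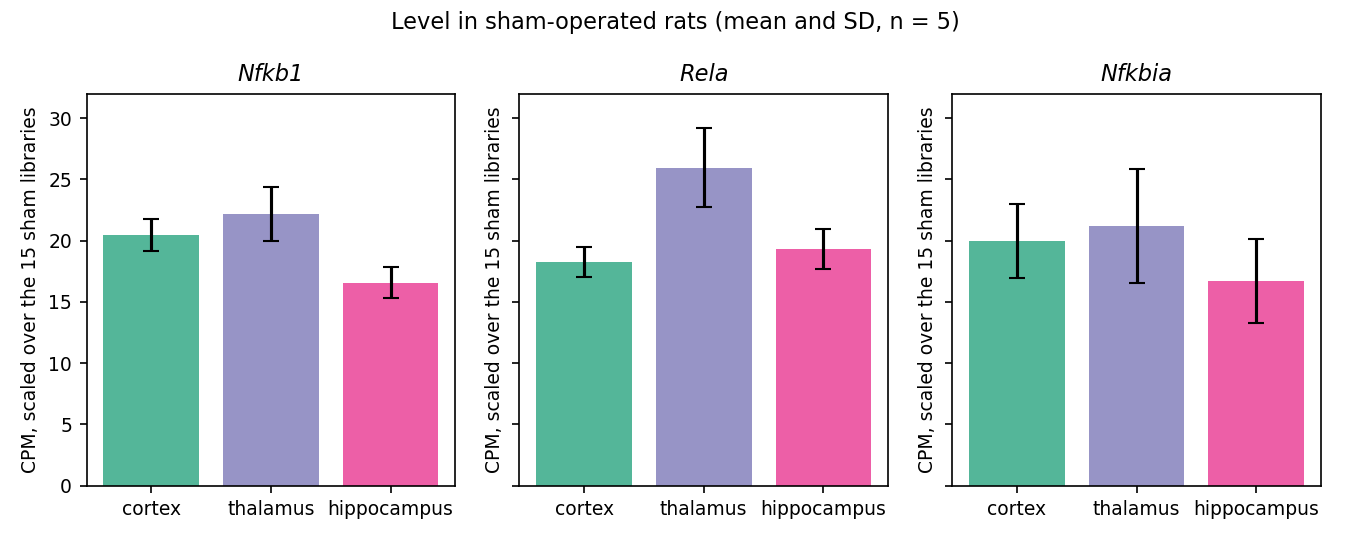
Bars give the mean level in CPM of each gene in the 3 brain areas of the sham-operated rats, scaled over the 15 sham libraries, with the SD (n = 5). Rela stands out in the thalamus at 26.0 CPM, and Nfkb1 is lowest in the hippocampus at 16.6 CPM.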

How the data were processed

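Per the labels and the study's methods, poly-A mRNA was sequenced from 10 rats in 3 brain areas. The authors aligned the reads to the Rnor_5.0 (RN5) genome with STAR and deposited, for each area, a table of raw counts over Ensembl genes. The counting tool and its use of strand are not given in the sources used here. Column names gave the sample of every column, which left 0 columns unused. The study set aside hippocampal control libraries with low alignment, whereas all 10 hippocampal columns were used here.

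Counts were analysed with R 4.3.3 and edgeR 4.0.16. Within an area, filterByExpr set the genes tested (at least 10 reads in enough libraries, 15 in total) and TMM the scaling. Differences between TBI and sham were tested by robust quasi-likelihood, adjusted after Benjamini and Hochberg with a threshold of 0.05. The 95% intervals come from the same fit, and log2 CPM used a prior count of 3. Interactions used all 30 libraries, and levels in sham rats used the 15 sham libraries. Alternatives were DESeq2 1.42.0, limma 3.58.1 (voom), RLE scaling, no filter, 1 fit of all areas, an exact permutation test, the rat as a replicate block, and libraries left out. Several alternatives were chosen after seeing the data. These were library totals without scaling factors, the fits by the code in hippocampal column names, and leaving out hippocampal rats 3, 4, 5 and 8. The exact test without rats 3 and 8, the fits of 2 areas and the relations across rats were also chosen then. So was the matching of hippocampal libraries to rats. It used genes with a range of at least 1.5 on the log2 scale, r over 0.9 between cortex and thalamus and a correlation with treatment under 0.5 in size. The members, the gene lists and the rule for named genes (the 3 genes, the other genes of the pathway and the genes most alike) were chosen with earlier results of these data known. Only the 3 genes could be matched.

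Each rat gave a library of every area, which pairs them by rat. Deviations from the group means correlated between libraries of 1 rat at a mean of 0.058 between cortex and thalamus, 0.122 between cortex and hippocampus and 0.038 between thalamus and hippocampus, over 16004 genes. Within groups, the counts of all 60 library pairs were further apart than sampling noise allows (chi-square per degree of freedom of at least 15.1). Libraries of a group came from separate rats. On simulated counts, edgeR recovered 86.5%, 70.5% and 87.5% of 2-fold changes in cortex (17080 genes), thalamus (16488 genes) and hippocampus (16746 genes). False calls made up 5.98%, 1.40% and 7.41% of all calls by edgeR, and 13.3%, 16.1% and 16.1% by DESeq2. The 3 genes rose by at most 1.58-fold, so the recovered shares do not tell how often changes of their size are found. The simulated libraries of an area also shared the same mean composition, unlike the real ones. Promoter sequences are from RefSeq (GRCr8), and all 3 genes matched by symbol.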

Additional observations from a re-analysis of the deposited data

Results flagged for a closer look

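The level of Rela in the cortex of sham rat 4 was 21.7 CPM, against 18.7 to 19.3 CPM in the other 4 sham rats, a gap of 0.824 of the range of the group. This exceeded Dixon's critical value of 0.71 for 5 samples. Of the 18 groups examined (3 genes, 3 areas and 2 treatments), it was the only one past that value, and chance gives about 1 in 20. The cortical rise of Rela kept its call in the fit without sham rat 4.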

How the results depend on the processing

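Cortical Rela and Nfkbia were called in all 15 edgeR, DESeq2 and limma alternatives, and every alternative kept the direction of all 9 differences between TBI and sham. Without scaling factors, the median of all genes shifted by 0.21 in the cortex and 0.38 in the hippocampus, and cortical Nfkb1 reached 0.41 (adjusted p = 0.0271), or 0.21 beyond that shift. The exact permutation test gave hippocampal Nfkb1 a difference of 0.17 at an exact p of 0.0317. Without rats 3 and 8, it gave Nfkb1 0.21 and Rela 0.29, both at the smallest exact p of 0.0286. With each rat left out, Rela in the thalamus ranged from 0.56 to 0.76 and its difference between thalamus and hippocampus from 0.30 to 0.59. Differences near zero changed sign. For Nfkb1, cortex minus thalamus was 0.018 without a filter, 0.038 in the fit of these areas alone and -0.082 to 0.053 with each rat left out. Cortex minus hippocampus was 0.021 without a filter and -0.068 to 0.038 with each rat left out. Thalamus minus hippocampus was -0.013 in the fit of these areas alone, -0.044 without hippocampal rats 3 and 8, -0.025 without rats 4 and 5 and -0.065 to 0.037 with each rat left out. In sham rats, Nfkbia in cortex minus thalamus ranged from -0.12 to 0.0042 with each rat left out. Sham Nfkbia in thalamus minus hippocampus was 0.35 with the rat as a replicate block (adjusted p = 0.0169 by edgeR), 0.38 without a filter (adjusted p = 0.0459) and 0.24 to 0.41 with each rat left out, called without sham rat 5 (adjusted p = 0.0409). The replicate block changed no other call of the 3 genes, and moved the genes called in the interactions from 81 to 49 between cortex and hippocampus and from 58 to 31 between thalamus and hippocampus. Genes called in the thalamus were 934 by edgeR, 1950 by DESeq2, 2671 by limma voom, 3457 in 1 fit of all areas and 0 to 2421 with each rat left out. In the hippocampus, edgeR called 0 genes (1432 at an unadjusted p under 0.05), DESeq2 46, edgeR without scaling factors 225, and edgeR 0 to 1 with each rat left out. Without sham rats 1 and 2 it called 1, without sham rats 3 and 5 it called 3, without sham rat 3 and TBI rat 8 it called 263, and without rats 3, 4, 5 and 8 it called 82. The causes of these changes were not tested. The pathway and cell type lists were not run, because identifiers could not be matched to names. Nfkb1, counted with 226 to 1085 reads per library, passed the adjusted threshold in no area in the fits with TMM scaling.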
